A study of Mus musculus with 24 samples.

Results

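The 10 genes described here are a set of cell cycle and growth-arrest genes measured in mouse liver: the mitotic entry kinase gene Wee1, the inhibitor gene Cdkn1a, the D-type cyclin genes Ccnd1, Ccnd2 and Ccnd3, the G-type cyclin genes Ccng1 and Ccng2, and the stress genes Gadd45a, Gadd45b and Gadd45g. They were taken by gene name from the deposited tables, which list 43629 gene identifiers, and each of the 10 names matched a single entry in every library. The mice were C57BL/6, a common inbred strain, and wild type at every age. Young mice were about 4 and old mice about 19 months of age, and no treatment is named. Each age was sampled every 4 h from ZT2 to ZT22, where zeitgeber time (ZT) counts the hours since the lights came on, with 2 libraries per age and time and 24 in all. Whether the 2 libraries of a group are separate animals is not stated, nor is the sex, and the p values then measure only the spread between libraries, which may be technical.

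The circadian clock of a cell runs on a loop in which CLOCK and BMAL1 bind E-box sequences and switch on their own repressors, the PER and CRY proteins, while REV-ERB and ROR factors compete at a second type of element. In liver this loop also drives output genes, and Wee1 is a textbook example of a cell cycle gene under E-box control, while Cdkn1a is known to respond to REV-ERB and ROR. WEE1 places an inhibitory phosphate on CDK1 and so delays entry into mitosis. p21, the product of Cdkn1a, inhibits cyclin-dependent kinases and is the best known product of a p53 target gene. Adult hepatocytes rarely divide, so these mRNAs are read here in tissue that is mostly at rest.

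Promoter sequence just before the start site is shown for 4 of the genes with a clock or p53 motif there, the Gadd45 genes and Cdkn1a. The windows of Ccng1 and Ccnd3 also held a match and are not printed. Of the 10 genes, 7 had windows in the RefSeq promoter table (GRCm38.p6), while Wee1, Ccnd1 and Ccnd2 were not searched, and Cdkn1a and Ccnd3 had windows for 2 start sites, so that 9 windows were searched on both strands. Each window ran from 250 bases before to 50 bases after a start site, and the 250 bases before it are printed 5′ to 3′ on the gene's strand, with matches in capitals. For Gadd45a (chr6:67037408-67037657, minus strand) and Cdkn1a (chr17:29090729-29090978, plus strand), the capitals mark p53 half-sites, and for Gadd45b (chr10:80929841-80930090, plus strand) and Gadd45g (chr13:51846425-51846674, plus strand) they mark an E-box. A half-site was read as RRRCWWGYYY, where R is A or G, W is A or T and Y is C or T.
Gadd45a: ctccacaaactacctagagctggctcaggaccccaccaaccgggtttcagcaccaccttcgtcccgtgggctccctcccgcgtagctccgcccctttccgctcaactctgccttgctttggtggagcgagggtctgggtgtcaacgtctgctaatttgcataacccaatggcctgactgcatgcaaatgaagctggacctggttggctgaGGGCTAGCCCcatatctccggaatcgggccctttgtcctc
Gadd45b: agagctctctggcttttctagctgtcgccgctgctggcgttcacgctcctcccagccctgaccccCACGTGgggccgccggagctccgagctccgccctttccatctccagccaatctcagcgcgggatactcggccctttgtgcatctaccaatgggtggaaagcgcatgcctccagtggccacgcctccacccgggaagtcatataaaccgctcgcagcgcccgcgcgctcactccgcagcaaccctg
Gadd45g: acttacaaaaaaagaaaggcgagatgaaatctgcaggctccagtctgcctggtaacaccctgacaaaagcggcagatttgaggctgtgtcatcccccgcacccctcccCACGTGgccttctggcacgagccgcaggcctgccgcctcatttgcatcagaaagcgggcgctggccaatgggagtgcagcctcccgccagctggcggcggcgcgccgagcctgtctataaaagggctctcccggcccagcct
Cdkn1a: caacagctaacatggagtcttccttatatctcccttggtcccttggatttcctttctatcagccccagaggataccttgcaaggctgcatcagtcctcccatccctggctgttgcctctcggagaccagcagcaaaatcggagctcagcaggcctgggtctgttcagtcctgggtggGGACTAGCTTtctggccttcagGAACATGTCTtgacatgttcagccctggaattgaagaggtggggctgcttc

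The E-box CACGTG lay 185 bases before the start of Gadd45b and 142 bases before that of Gadd45g, and 7.15% of the 32851 RefSeq promoter windows held that motif. The p53 half-site lay 40 bases before the start of Gadd45a, and 73 and 51 bases before that of Cdkn1a. A further half-site lay 185 bases before the start of Ccng1, and 8.36% of all windows held at least 1 half-site. The ROR core AGGTCA was matched once, on the reverse strand of a Ccnd3 window 97 bases before the start, against 16.3% of all windows. Neither the D-box (TTATGTAA or TTACGTAA, in 1.06% of all windows) nor the cyclic AMP element TGACGTCA (1.79%) was matched in the 9 windows. No 2 matches overlapped. A match is a description of the letters in the window and not a binding site.

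Levels are given as deposited TPM (transcript abundance per gene length, with a fixed sum per library) after scaling between libraries, and tests were run with limma on log2(scaled TPM + 0.5). A fold change on that scale understates the change of genes at low level. All 10 genes passed the filter of a mean of at least 1 TPM, as 12261 genes did, and none of the 10 was at 0 in any library. The means over all 24 libraries ran from 1.54 TPM for Gadd45b through 3.06 for Ccnd2, 5.18 for Wee1, 5.94 for Cdkn1a, 8.11 for Ccng2, 8.44 for Gadd45a, 12.9 for Ccnd3, 14.8 for Gadd45g and 15.0 for Ccnd1 to 20.0 for Ccng1. The ranges of neighbours in this order overlapped over the 24 libraries. The depth equalled 8.70 to 13.7 M reads of 50 bases per library (median 10.5 M), at which 1 TPM stands for 5.50 to 8.56 reads per kilobase of transcript. Values near 1 TPM, as in Gadd45b and in the troughs of Wee1 and Cdkn1a, therefore rest on few reads. A pair of libraries stood apart. The summed level of 5 pancreatic acinar markers reached 2603.3 TPM in young ZT18 replicate 2 and was at most 10.3 in any old library. The share of mitochondrial transcripts was 3.42% and 8.74% in the old ZT14 replicates 1 and 2, against 10.7% to 17.1% elsewhere. Without young ZT18 replicate 2 and old ZT14 replicate 1, the counts of rhythmic genes below were 5 for both ages, 3 for young and 3 for old, and Cdkn1a passed the test of age over the day.

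**Figure D1:**
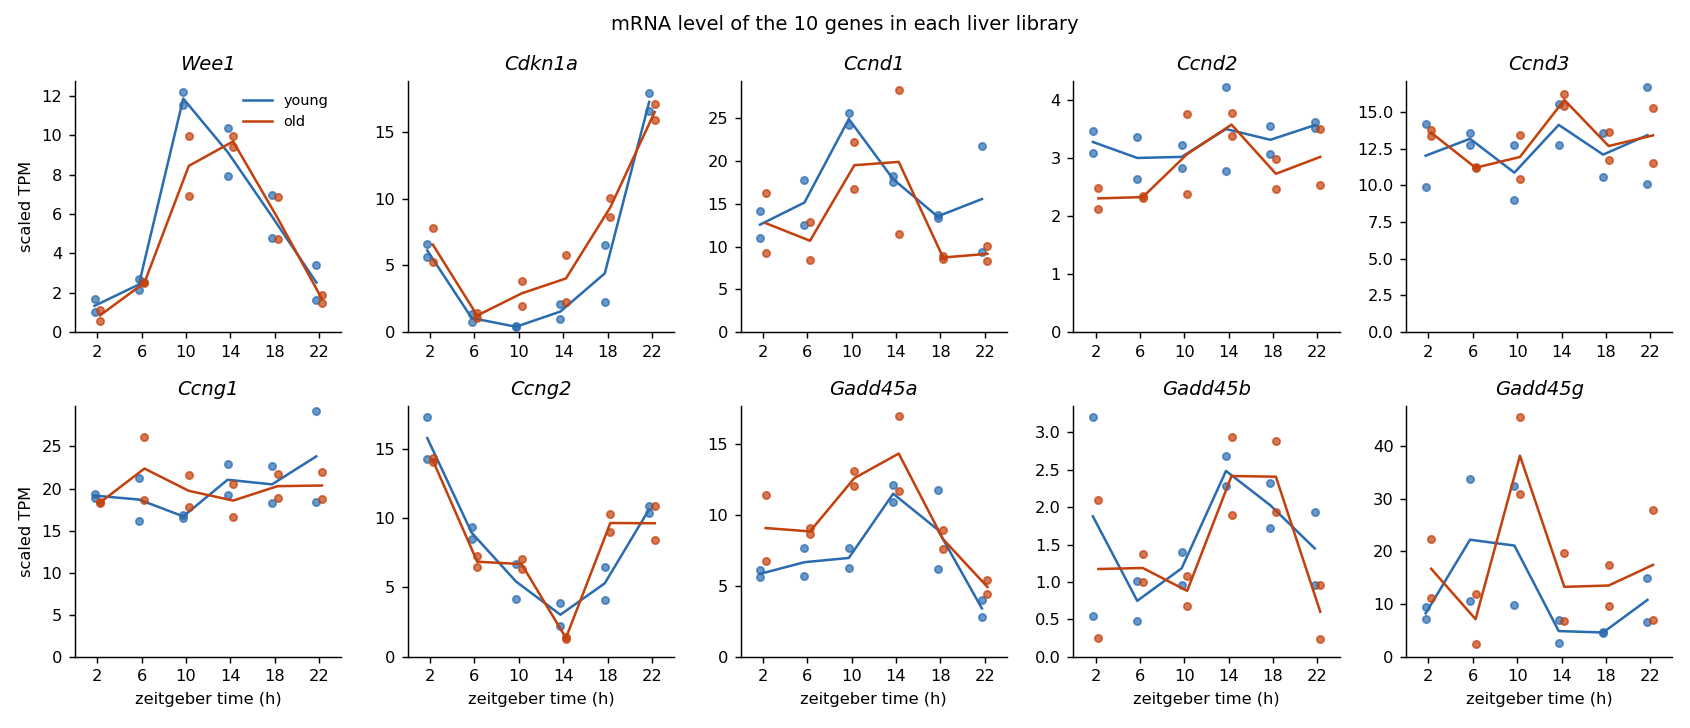
Scaled TPM (vertical axis, linear from 0, scale set per gene) of each gene in each library against zeitgeber time in hours, with points for libraries and lines through the mean of the 2 libraries of each group, in blue for young and orange for old. Wee1, Cdkn1a and Ccng2 swing over the day at both ages, while Ccnd3 and Ccng1 stay within 9.01 to 16.7 and 16.1 to 29.2 TPM.

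Over the day, 5 of the 10 genes had a 24 h rhythm when both ages were tested as a pair: Wee1, Cdkn1a, Ccng2, Gadd45a and Ccnd1. Wee1, Cdkn1a and Ccng2 were called in each age on its own. These 5 of 10 stand beside a background of 23.9% of the 12261 genes tested, and the 3 of 10 in young and the 3 of 10 in old stand beside 10.7% and 8.96%. The median amplitude, the log2 difference between fitted peak and trough, was 0.93 over the 10 genes and 0.36 over all genes tested. The fitted peaks did not coincide. Ccng2 peaked near lights on, Ccnd1, Gadd45a and Wee1 between ZT10.8 and ZT13.2, and Cdkn1a at ZT21.5.

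**Figure D2:**
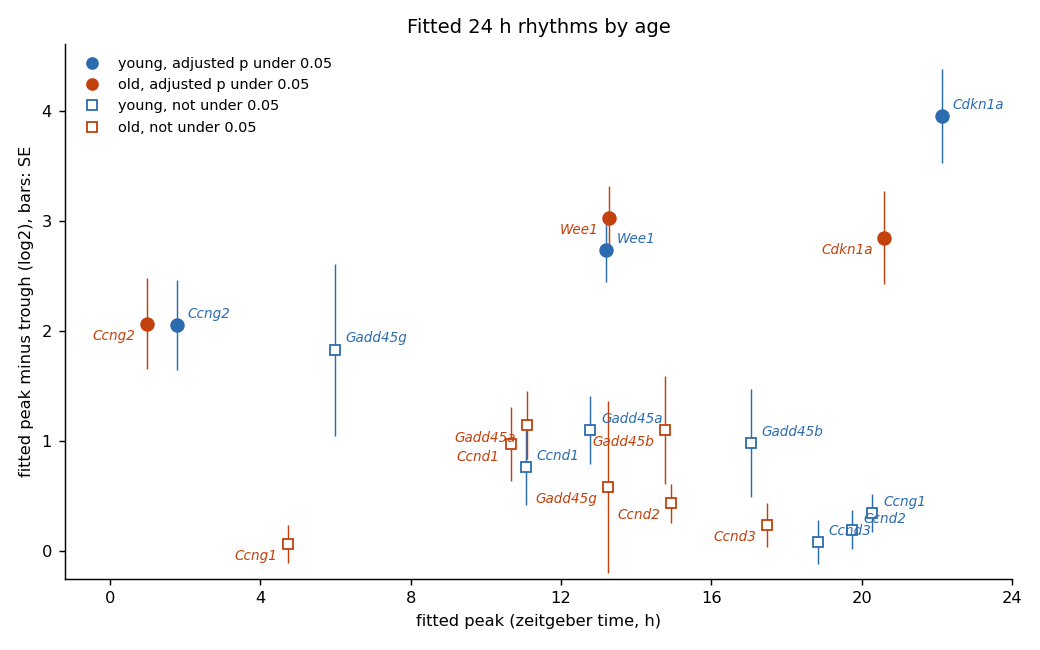
Fitted peak (horizontal axis, zeitgeber time in hours) against fitted peak minus trough (vertical axis, log2, bars: SE) for each gene and age, blue for young and orange for old. Filled circles mark an adjusted p under 0.05 within that age and open squares mark the rest. The filled circles are those of Wee1, Cdkn1a and Ccng2 at both ages.

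Wee1 (ENSMUSG00000031016, GRCm38 chromosome 7, 110122350 to 110142112, plus strand) rose 8.88-fold from its lowest to its highest time in young liver and 11.3-fold in old liver. In young liver the 2 libraries read 0.999 and 1.67 TPM at ZT2, 2.69 and 2.15 at ZT6, 12.2 and 11.5 at ZT10, 7.92 and 10.4 at ZT14, 4.80 and 6.94 at ZT18, and 1.62 and 3.42 at ZT22. In old liver they read 0.571 and 1.14 TPM at ZT2, 2.53 and 2.49 at ZT6, 6.93 and 9.95 at ZT10, 9.94 and 9.42 at ZT14, 4.71 and 6.88 at ZT18, and 1.49 and 1.89 at ZT22. At both ages the ZT10 and ZT14 libraries were above all libraries of ZT2, ZT6 and ZT22, and in old liver the lower ZT10 library nearly met the higher ZT18 one. The fitted amplitude was 2.74 log2 (SE 0.284) in young and 3.03 (SE 0.284) in old, with peaks at ZT13.2 (SE 0.396 h) and ZT13.3 (SE 0.358 h). The rhythm of both ages together passed the test (adjusted p = 6.93e-09, limma). Across the 24 libraries, the genes whose log2 levels followed Wee1 most closely were Cyp2a5 (r = 0.956), the clock gene Per3 (r = 0.942) and the glycogen synthase gene Gys2 (r = 0.940). These correlations share the sampling times and the libraries.

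Cdkn1a (ENSMUSG00000023067, chromosome 17, 29090979 to 29100722, plus strand) had the widest daily swing of the 10 genes at the young age and peaked at ZT22, when Wee1 was low. In young liver the libraries read 5.62 and 6.60 TPM at ZT2, 0.790 and 1.32 at ZT6, 0.362 and 0.445 at ZT10, 2.12 and 0.966 at ZT14, 6.51 and 2.28 at ZT18, and 16.5 and 17.9 at ZT22. In old liver they read 5.29 and 7.81 TPM at ZT2, 1.03 and 1.46 at ZT6, 1.99 and 3.80 at ZT10, 2.28 and 5.76 at ZT14, 8.63 and 10.05 at ZT18, and 15.9 and 17.1 at ZT22. The ZT22 libraries were the highest at both ages and at like levels. Relative to young, the old mean was highest at ZT10 (2.90 against 0.403 TPM), ZT14 (4.02 against 1.54) and ZT18 (9.34 against 4.40). None of these times passed the test of age, and at ZT14 the nearest old and young libraries read 2.28 and 2.12 TPM. The mean at the highest time was 42.7 times that at the lowest in young and 13.3 times in old, with the lowest time at ZT10 in young and at ZT6 in old. The young ratio divides by 0.403 TPM at ZT10, a value that rests on few reads.

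The fitted amplitude of Cdkn1a was 3.96 log2 (SE 0.425) with a peak at ZT22.1 in young, and 2.85 (SE 0.425) with a peak at ZT20.6 in old. The rhythm of both ages together passed the test (adjusted p = 2.30e-07, limma). The difference of the rhythms between ages did not pass after adjustment over all genes (unadjusted p = 0.0297, adjusted p = 0.9999). Nor did the variation of the age difference over the times (unadjusted p = 0.0391, adjusted p = 0.9999). Closest in pattern were Lgalsl (r = 0.844), Zbtb21 (r = 0.819) and Ppard, a nuclear receptor gene (r = 0.813).

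The D-type cyclins bind CDK4 and CDK6 and drive cells through G1. Ccnd1 (ENSMUSG00000070348, chromosome 7, 144929931 to 144939869, minus strand) was the member of the 3 with a rhythm. In young liver its libraries read 10.97 and 14.2 TPM at ZT2, 12.5 and 17.8 at ZT6, 24.2 and 25.6 at ZT10, 18.2 and 17.5 at ZT14, 13.8 and 13.3 at ZT18, and 21.8 and 9.35 at ZT22. In old liver they read 9.28 and 16.2 TPM at ZT2, 8.47 and 12.9 at ZT6, 16.8 and 22.3 at ZT10, 11.5 and 28.4 at ZT14, 8.92 and 8.53 at ZT18, and 8.30 and 10.02 at ZT22. Both ZT10 libraries were the highest in young, while in old the 2 ZT14 libraries were far apart, as were those of young ZT22. The amplitude of both ages together was 0.87 log2 (SE 0.239) with a peak at ZT10.8 (adjusted p = 0.0300, limma), and neither age passed alone (adjusted p = 0.305 in young and 0.162 in old). The call was lost in 6 of the 24 fits that left out 1 library (without young ZT2 replicate 1, young ZT10 replicate 1 or 2, young ZT22 replicate 2, old ZT10 replicate 2 or old ZT22 replicate 1), where the adjusted p reached 0.0706, and with no filter on mean TPM (adjusted p = 0.0527). With no cosine shape assumed, a test of any difference among the 6 times gave Ccnd1 an adjusted p of 0.0917 against a background of 15.3% of genes called.

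Ccnd2 and Ccnd3 were flatter. Ccnd2 (chromosome 6, 127125779 to 127151048, minus strand) ranged from 2.64 to 4.23 TPM in young, with a median of 3.29, and from 2.13 to 3.78 in old, with a median of 2.51. Ccnd3 (chromosome 17, 47505051 to 47599691, plus strand) ranged from 9.01 to 16.7 TPM in young, with a median of 12.8, and from 10.5 to 16.3 in old, with a median of 13.4. No rhythm passed the test for either (adjusted p = 0.277 for Ccnd2 and 0.671 for Ccnd3, both ages together). Closest in pattern to Ccnd1 were Abhd2 (r = 0.739), Rnf145 (r = 0.730) and Yrdc (r = 0.724). E2f1, a gene of the G1 to S transition, came first for Ccnd2 (r = 0.741), ahead of Ergic2 (r = 0.707) and Kat2a (r = 0.700). For Ccnd3 the closest were Baiap2 (r = 0.629), Ski (r = 0.628) and Cep41 (r = 0.626).

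The G-type cyclins do not drive the cell cycle in the way of the D-type cyclins. Ccng1 is a p53 target and Ccng2 is known to be induced by FoxO factors and to slow proliferation. The G-type pair split by rhythm. Ccng2 (ENSMUSG00000029385, chromosome 5, 93267257 to 93276231, plus strand) read 17.3 and 14.2 TPM at ZT2 in young, 8.52 and 9.36 at ZT6, 4.17 and 6.67 at ZT10, 2.21 and 3.86 at ZT14, 4.09 and 6.50 at ZT18, and 10.4 and 10.9 at ZT22. In old it read 14.3 and 14.01 TPM at ZT2, 7.23 and 6.47 at ZT6, 7.02 and 6.34 at ZT10, 1.45 and 1.27 at ZT14, 9.02 and 10.3 at ZT18, and 10.9 and 8.38 at ZT22. ZT2 was the highest time and ZT14 the lowest at both ages, a ratio of 5.20 in young and 10.4 in old. At ZT14 the mean was 1.36 TPM in old against 3.03 in young, and at ZT18 it was 9.64 against 5.30.

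The fitted amplitude of Ccng2 was 2.05 log2 (SE 0.410) in young and 2.07 (SE 0.410) in old, with peaks at ZT1.78 and ZT0.976. Both passed within their age (adjusted p = 0.00647 and 0.00670, limma), and so did both ages together (adjusted p = 8.27e-05). The age difference of Ccng2 was -0.89 log2 (SE 0.254, adjusted p = 0.310) at ZT14 and 0.84 (SE 0.254, adjusted p = 0.779) at ZT18. Its variation over the times had an unadjusted p of 0.00477 and an adjusted p of 0.9999. The genes closest to Ccng2 were Rnf125 (r = 0.929), Ethe1 (r = 0.885) and Fbxo8 (r = 0.862). Ccng2 ran against Wee1 over the 24 libraries (r = -0.745) and against Gadd45a (r = -0.609).

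Ccng1 (chromosome 11, 40748552 to 40755311, minus strand) had the highest mean level of the 10. It ranged from 16.1 to 29.2 TPM in young, with a median of 19.1, and from 16.6 to 26.1 in old, with a median of 18.8. Its rhythm did not pass the test (amplitude 0.16 log2, SE 0.121, adjusted p = 0.596 for both ages). Glrx2 (r = 0.844), Capza2 (r = 0.833) and Dynlt3 (r = 0.824) were closest in pattern.

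**Figure D3:**
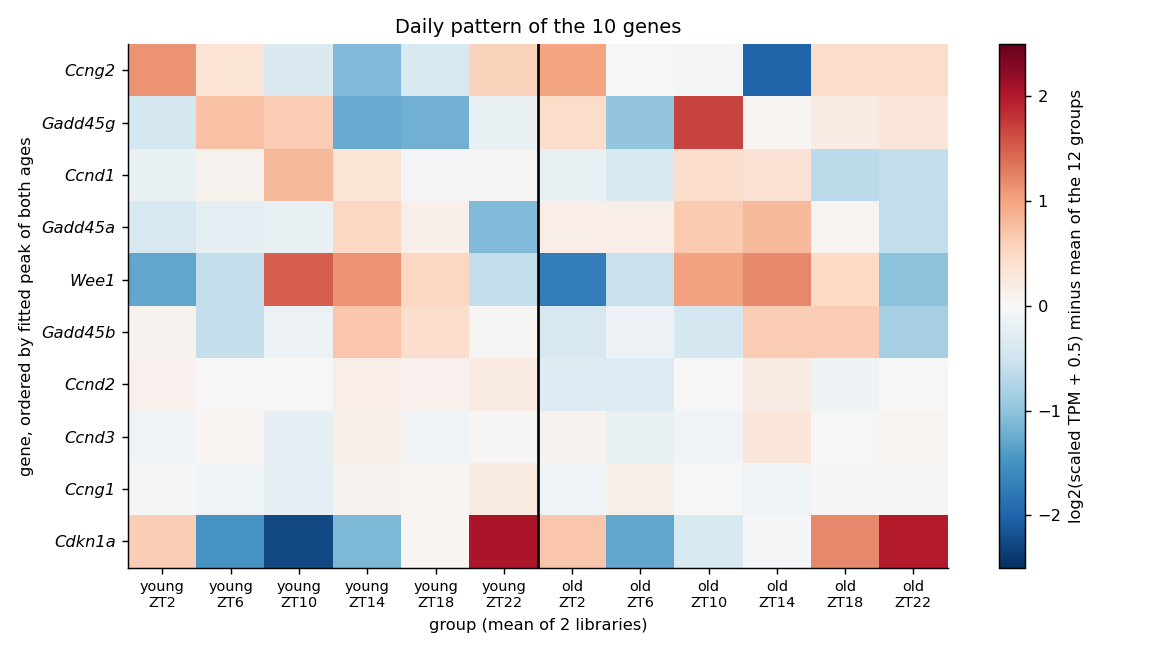
Deviation of each group's mean log2(scaled TPM + 0.5) from the mean of the 12 groups (colour, log2, red above and blue below), with genes in rows ordered by the fitted peak of both ages and groups in columns, young on the left and old on the right of the black line. The row of Cdkn1a is red at ZT22 and the row of Wee1 is red at ZT10 and ZT14 at both ages.

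GADD45 proteins are small stress-induced partners of PCNA, CDK1 and the kinase MEKK4, and through the last they can activate p38 and JNK. Gadd45a (ENSMUSG00000036390, chromosome 6, 67035096 to 67037457, minus strand) is the member best known as a p53 target. In young liver it read 5.59 and 6.08 TPM at ZT2, 7.63 and 5.68 at ZT6, 6.23 and 7.69 at ZT10, 12.1 and 10.9 at ZT14, 11.7 and 6.17 at ZT18, and 4.03 and 2.77 at ZT22. In old liver it read 11.4 and 6.76 TPM at ZT2, 9.03 and 8.61 at ZT6, 13.1 and 12.05 at ZT10, 17.0 and 11.6 at ZT14, 8.95 and 7.60 at ZT18, and 5.43 and 4.39 at ZT22. By the means of the libraries, ZT14 was the highest and ZT22 the lowest time at both ages. The amplitude was 1.10 log2 (SE 0.219) for both ages together, with a peak at ZT11.9 (adjusted p = 0.00287, limma). Within young and within old it missed the threshold (adjusted p = 0.0586 and 0.0531). Both passed with the deposited TPM (adjusted p = 0.0351 and 0.0136) and the deposited FPKM (adjusted p = 0.0462 and 0.0213), and old also with a pseudocount of 1 or a filter at 5 TPM. Without old ZT2 replicate 1 both ages passed (adjusted p = 0.0374 and 0.0159). Young also passed without young ZT2 replicate 2 or young ZT10 replicate 1, and old without young ZT10 replicate 1, young ZT18 replicate 1 or young ZT22 replicate 2. Camk2n1 (r = 0.819), the serum amyloid gene Saa4 (r = 0.786) and Prkag1 (r = 0.735) were closest in pattern.

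Gadd45b (chromosome 10, 80930091 to 80932204, plus strand), known as a target of NF-κB, was the lowest of the 10. It ranged from 0.476 to 3.21 TPM in young, with a median of 1.56, and from 0.238 to 2.93 in old, with a median of 1.23. ZT14 had the highest mean at both ages, at 2.48 TPM in young and 2.42 in old, and the 2 ZT2 libraries were far apart at both ages (0.546 and 3.21 in young, 0.250 and 2.10 in old). Its amplitude for both ages was 0.997 log2 (SE 0.346, adjusted p = 0.0976, limma). It passed when the higher ZT2 library, replicate 2, was left out in young (1.25 log2, adjusted p = 0.0185) or in old (1.22 log2, adjusted p = 0.0269). Mid1ip1 (r = 0.796), Tfrc (r = 0.781) and Atic (r = 0.766) were closest in pattern.

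Gadd45g (chromosome 13, 51846678 to 51848468, plus strand), which cytokines and hormones induce in liver, had replicates far apart at most times. The young libraries read 9.39 and 7.09 TPM at ZT2, 10.7 and 33.8 at ZT6, 9.80 and 32.4 at ZT10, 7.07 and 2.69 at ZT14, 4.58 and 4.64 at ZT18, and 15.0 and 6.65 at ZT22. The old libraries read 22.3 and 11.1 TPM at ZT2, 2.36 and 11.9 at ZT6, 30.8 and 45.5 at ZT10, 19.7 and 6.80 at ZT14, 9.64 and 17.4 at ZT18, and 27.8 and 7.05 at ZT22. At ZT6 and ZT10 in young, the second library read over 3 times the first, and no rhythm passed the test (adjusted p = 0.474 for both ages). Foxq1 (r = 0.792) and Socs3, a feedback inhibitor of cytokine signalling (r = 0.770), were closest in pattern, ahead of Gpbp1l1 (r = 0.643).

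Between the ages, none of the 10 genes passed the test over the day (0 of 10 by limma), against 1.64% of all genes tested. The median log2 difference, old minus young, was -0.03 over the 10 genes and -0.01 over all genes, with 5 members above 0 and 5 below. The lowest p values were those of Cdkn1a and Gadd45a, both higher in old by their means. Cdkn1a averaged 5.12 ± 6.11 TPM (SD over the 12 libraries of all times) in young and 6.75 ± 5.40 in old, a difference of 0.71 log2 (SE 0.178, adjusted p = 0.0590). Over the alternatives the difference lay between 0.48 and 0.88 log2 and the adjusted p between 0.0143 and 0.364, the last with ZT10 left out at both ages. Cdkn1a passed with the deposited TPM taken without scaling (0.82 log2, adjusted p = 0.0296), with the deposited FPKM (0.70 log2, adjusted p = 0.0377), with a pseudocount of 0.1 (0.88 log2, adjusted p = 0.0402), and without young ZT18 replicate 1 (0.83 log2, adjusted p = 0.0143), young ZT14 replicate 1, old ZT10 replicate 1 or old ZT14 replicate 1. It also passed with young ZT18 replicate 2 and old ZT14 replicate 1 both left out (0.70 log2, adjusted p = 0.0234).

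Gadd45a averaged 7.21 ± 2.96 TPM in young and 9.66 ± 3.54 in old (SD, n = 12 each), a difference of 0.41 log2 (SE 0.119, adjusted p = 0.110, limma). It passed with the deposited TPM (0.52 log2, adjusted p = 0.00702), with the deposited FPKM (0.46 log2, adjusted p = 0.0277) and without young ZT18 replicate 1 (0.49 log2, adjusted p = 0.0319). Without scaling, the median age difference of all genes was 0.09 log2 in the deposited TPM against -0.01 after scaling, a shift of 0.10. Relative to that shift, the deposited TPM gave 0.72 log2 for Cdkn1a and 0.42 for Gadd45a. The other genes gave differences of -0.35 log2 for Ccnd1 (SE 0.163, adjusted p = 0.428), -0.20 for Wee1 (adjusted p = 0.625) and -0.19 for Ccnd2 (adjusted p = 0.464). Ccnd2 averaged 3.28 ± 0.441 TPM in young and 2.84 ± 0.609 in old (SD, n = 12 each). Gadd45g differed by 0.57 log2 with an SE of 0.337 (adjusted p = 0.582) and Gadd45b by -0.17 (adjusted p = 0.885). Ccnd3, Ccng1 and Ccng2 differed by 0.06, 0.01 and -0.07 log2, and the sign of the latter pair turned under some alternatives.

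**Figure D4:**
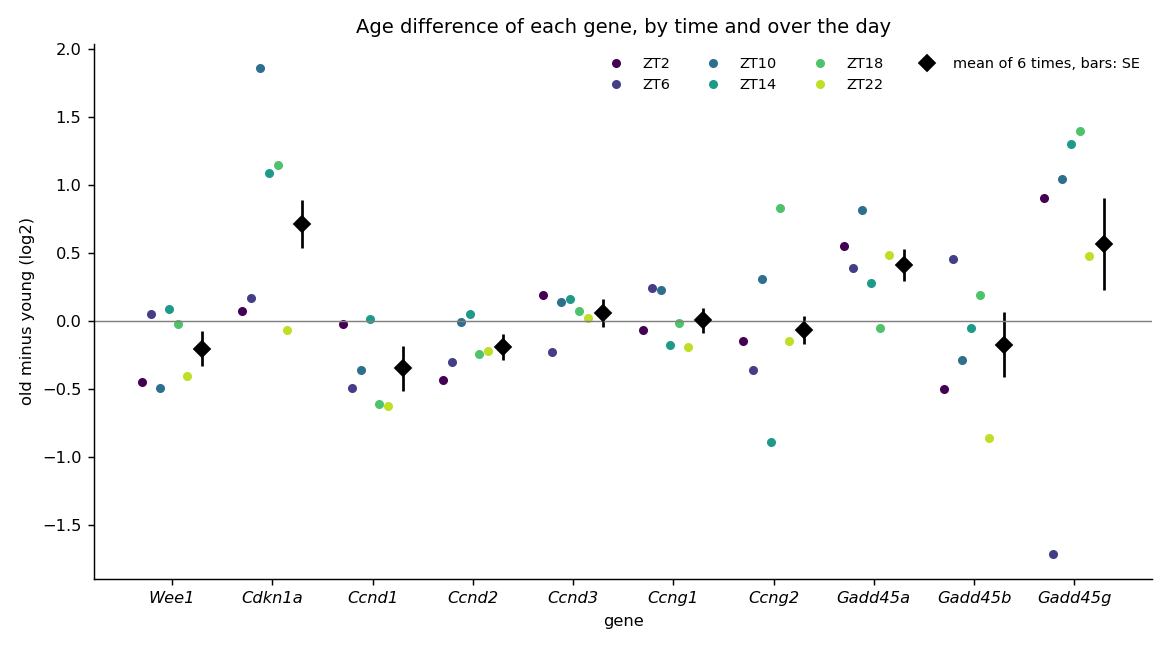
Old minus young difference (vertical axis, log2) of each gene, with coloured points for the 6 times and black diamonds for the mean of the times (bars: SE). The ZT10 point of Cdkn1a, at 1.86, is the highest, and the diamonds of Ccng1 and Ccnd3 lie near 0.

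Time by time, 0 of the 60 tests of a gene at a time passed. The background was 0% of all genes tested at ZT2 and ZT6, 0.53% at ZT10, 0.0408% at ZT14, 0.0245% at ZT18 and 0.00816% at ZT22. The lowest adjusted p was that of Cdkn1a at ZT10, where old exceeded young by 1.86 log2 (SE 0.435, adjusted p = 0.0720, limma). The young mean of Cdkn1a at ZT10 was 0.403 TPM, a value that rests on few reads. Cdkn1a also differed by 1.09 log2 at ZT14 (adjusted p = 0.569) and 1.15 at ZT18 (adjusted p = 0.945), and Gadd45a by 0.82 at ZT10 (SE 0.292, adjusted p = 0.369). The age difference varied over the times in 0 of 10 genes, against 0.0163% of all genes. An unadjusted p under 0.05 in that test was found for 2 of the 10, Cdkn1a and Ccng2, and for 442 of the 12261 genes tested. The rhythm differed between ages in 0 of 10 (1 at an unadjusted p under 0.05, Cdkn1a) against 0% of all genes, of which 429 had an unadjusted p under 0.05. These misses do not show that the ages are alike, since each group had 2 libraries.

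Acute phase mRNAs were high in some old libraries. Saa2, a serum amyloid gene, read 26.1 to 125 TPM in young libraries. In old libraries it read 1729.3 and 37.8 TPM at ZT2, 827 and 220 at ZT6, 8279.1 and 1082.5 at ZT10, 80.6 and 152 at ZT14, 39.0 and 44.5 at ZT18, and 54.4 and 38.6 at ZT22. The highest Saa2 readings were those of both old ZT10 libraries and of old ZT2 replicate 1. By the mean of the 6 times, Lcn2 and Hp were higher in old (adjusted p = 0.000380 and 0.00669, limma), 2 of the 6 acute phase genes tested. The excess of Lcn2 was not present at every time. At ZT10 it read 672 and 250 TPM in old against 5.48 and 3.15 in young. At ZT18 it read 7.45 and 6.43 TPM in old against 11.2 and 2.52 in young. The summed B and plasma cell markers (5 genes) read 9.37 to 51.9 TPM in young and 92.4 to 462 in old, the neutrophil markers (5 genes, with Ly6g at 0 throughout) 3.50 to 22.8 and 2.72 to 126, and the Kupffer cell markers (5 genes) 212 to 279 and 201 to 606. Hepatocyte markers (5 genes) summed to 75014.1 to 104061 TPM in young and 79280.1 to 106358 in old. The part of these in the differences above was not tested, and in bulk tissue fewer cells of a type and less RNA per cell cannot be told apart.

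Genes around the 10 were read from lists of their pathways, each tested over all genes. The counts of rhythmic genes below are for both ages together and stand beside 23.9% of all genes tested, and those of age differences beside 1.64%. The lists on p53 targets, G1 genes, GADD45 partners and immediate early genes had shares of rhythmic genes near that background. Of 19 core clock and clock output genes, 17 were tested, 16 were rhythmic in both ages together and 0 differed with age. Among those with the smallest p were Cry1 (peak ZT19.9, amplitude 2.89 log2) and Per2 (ZT15.2, 3.28). Of 16 further DNA damage and p53 target genes, 12 were tested, 4 were rhythmic and 0 differed with age. Bbc3, which encodes the cell death protein PUMA, led them with an amplitude of 1.36 log2 and a peak at ZT0.267 (adjusted p = 0.000766), followed by Sesn1 (0.53 log2, adjusted p = 0.0119) and Sesn2 (0.68 log2, adjusted p = 0.0350). Their median age difference was -0.03 log2.

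Of 23 S, G2 and M phase genes, only 7 reached the filter, and 0 of them were rhythmic or differed with age. Of 13 G1 kinase, retinoblastoma and E2F genes, 10 were tested and 3 were rhythmic: Rbl2 (0.74 log2, peak ZT6.02), Rb1 (0.72, ZT4.57) and E2f3 (0.63, ZT9.97). None of these 10 differed with age. Of 6 other CDK inhibitor genes, 4 were tested, and Cdkn2c and Cdkn1b were rhythmic (adjusted p = 0.0136 and 0.0156, limma). Cdkn2c, which encodes p18, averaged 5.04 TPM in young and 3.04 in old (-0.71 log2, adjusted p = 0.0628), which missed the threshold. The untested pair of this list, under the filter, read higher in old by their medians. Cdkn2a, which encodes p16 and p19ARF, was listed at 0 in all 12 young libraries and above 0 in 9 of 12 old ones (median 1.07 TPM, highest 2.43). Cdkn2b, which encodes p15, was above 0 in 5 of 12 young libraries (highest 0.587 TPM) and in 9 of 12 old ones (highest 0.684 TPM). The values of this pair rest on few reads, as 1 TPM stands for 5.50 to 8.56 reads per kilobase of transcript. The share of all genes under the filter with such a pattern was not computed, and the pair was chosen after its values were seen.

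Of 8 GADD45 partners and stress kinases, all 8 were tested, 3 were rhythmic and 0 differed with age. Map2k3 and Map2k6, which encode the kinases that activate p38, had amplitudes of 1.002 log2 (peak ZT13.4) and 1.30 log2 (peak ZT11.4), and the p38 gene Mapk14 one of 0.72 (peak ZT15.1). Of 12 FoxO-responsive genes, 11 were tested, 7 were rhythmic and 0 differed with age. Pdk4 (3.07 log2, peak ZT22.6), Txnip (0.88, ZT8.13) and Pck1 (2.45, ZT7.40) had the smallest p among them. Of 13 immediate early genes, 12 were tested, 4 were rhythmic and 0 differed with age, with a median age difference of 0.42 log2. Junb had the smallest rhythm p of these (amplitude 2.38 log2, peak ZT6.25), followed by Klf6 (0.61, ZT6.83) and Ier3 (1.48, ZT9.80).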

How the data were processed

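Livers were frozen, mRNA was selected with oligo-dT and strand-specific libraries of 50-base single reads were made, per the labels' protocols. Reads were aligned with HISAT2 to GRCm38 and quantified with StringTie, per the submitters' processing notes, which name no version. Coverage, as deposited, is the mean read depth per base of a gene, and the authors' StringTie run scaled them to the deposited FPKM and, with a fixed sum per library, to the deposited TPM. Coverage over FPKM gave the depth, and no read counts were used.

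Median-of-ratios factors from the 13270 genes above 0 in all 24 libraries scaled the TPM. The filter was a mean TPM of 1 or more, and limma 3.58.1 in R 4.3.3, with an intensity trend, was run on log2(scaled TPM + 0.5). A model of the 12 age and time groups gave the age differences, and a cosine model of 24 h per age gave the rhythms. P values were adjusted by Benjamini-Hochberg over the 12261 genes tested, with a threshold of 0.05. Replicate libraries correlated at 0.940 to 0.970 over 12 pairs. Tables were read with pandas 2.3.3 and numpy 2.4.6 in Python 3.11.15, and plots drawn with matplotlib 3.10.9. The fits were also run on simulated data with independent noise in each library, which does not test them on deviations shared between libraries.

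The members and lists were chosen with earlier results of these data known. All 10 members were named, and of each list at most 3 genes past the threshold with the smallest p, with the exception of the age values of Cdkn2c, Cdkn2a and Cdkn2b, which were chosen after they were seen. A gene that the rule would name is not reported here. The 3 genes closest in pattern to each member were named by Pearson's r without predicted or clone names. Alternatives were other scalings, units, pseudocounts, filters and variance models, a replicate block, and libraries or times left out.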

Additional observations from a re-analysis of the deposited data

How the results depend on the processing

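Of 1402 member values recomputed under the alternatives, 1353 kept their direction and their side of the threshold, 31 came past it, 7 fell short of it and 11 reversed. The count of members that differed between ages, 0 in the report, was 2 with the deposited TPM, 2 with the deposited FPKM, 1 with a pseudocount of 0.1, 1 without young ZT18 replicate 2 and old ZT14 replicate 1 together, and 0 to 2 when 1 library was left out. The count at single times was 1 with the pseudocount of 0.1, 1 without those 2 libraries, and 0 to 1 when 1 library was left out. The rhythmic members of both ages together numbered 4 to 6 when 1 library was left out and 4 with no filter. Those of young and of old numbered 4 each with the deposited TPM or FPKM, against 3 in the report. The reversals were of age differences near 0: Ccng2 at 0.027 log2 with the deposited TPM, and Ccng1 at -0.039 with ZT10 left out and at -0.048 to 0.060 when 1 library was left out (9 reversals). The cause was not tested.

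With the replicate number as a replicate block, 2 members differed between ages (Cdkn1a, adjusted p = 0.0431, and Gadd45a, adjusted p = 0.0272, limma), 6 were rhythmic in both ages together (Gadd45b added, adjusted p = 0.0463) and 4 in each age, and over all genes the count rose from 201 to 353. Same-numbered libraries deviated together (r over 0.1) in 52 of the 66 group pairs, and the numbers were not taken to pair the samples. The depth limits values near 1 TPM most.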
